A study of Homo sapiens with 2 samples.

Results

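The genes described here are 40 human genes of synaptic adhesion and of the scaffold beneath the synaptic membrane, chosen by symbol from the gene lists of both libraries, which name 61487 genes. Of these, 27 encode adhesion proteins and 12 encode scaffold proteins, and KCTD16, an auxiliary subunit of the GABA-B receptor, belongs to neither group and was treated on its own. Each of the 40 symbols named exactly 1 gene. Serotonin neurons (SNs) were differentiated from WA09 (H9), an established human embryonic stem cell line in which EGFP had been knocked in at TPH2, the gene of the rate-limiting enzyme of brain serotonin synthesis. EGFP+ cells were sorted at day 42 and sequenced with the 10x Genomics 3' kit (V3). The WT-labelled library came from cells with the reporter alone, and the FKO-labelled library from cells with the reporter and a FOXA2 knockout. By the study's methods, the FKO reporter line was built on the line named FKO2, which carries a frameshifting indel in FOXA2. The labels do not name the dose of the Sonic hedgehog agonist. Each condition has a single library, and since cells are not replicates, values of both libraries are given without a test and every interval is an exact 95% interval that covers counting error only.

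Synaptic adhesion proteins reach across the cleft. Neurexins and the receptor phosphatases of the LAR family sit on the presynaptic side and bind neuroligins, LRRTM and SLITRK proteins and IL1RAPL1 on the postsynaptic side, while teneurins pair with latrophilins. Beneath the membrane, DLG, DLGAP, SHANK and HOMER proteins are stacked into the postsynaptic density of excitatory synapses, gephyrin (GPHN) anchors receptors at inhibitory synapses, and CASK links neurexins to the presynaptic scaffold. Many of these genes are among the longest of the human genome, so their values are set beside those of other genes of like length and expression.

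The WT-labelled library held 11052 barcodes with a median of 10959.5 unique molecular identifiers (UMIs), and the FKO-labelled library held 8806 with a median of 6669.5. After filtering, 5749 and 6978 cells remained, or 52.0% and 79.2%, with 76805355 and 57909575 UMIs, and 21 barcodes were shared by both libraries. The RNA of the targeted gene was higher in the library labelled as its knockout. FOXA2 had 334 UMIs, or 4.35 CPM (UMIs per 1000000 UMIs of the library), in the WT-labelled library and 1265, or 21.8 CPM, in the FKO-labelled library, a log2 ratio of FKO over WT of 2.33 (2.15 to 2.51). Among other floor plate markers, NTN1 was also higher in the FKO-labelled library (5.30 and 12.2 CPM), SPON1 was at 27.8 CPM in both, and both SHH (5.91 and 2.75 CPM, log2 ratio -1.11, -1.38 to -0.84) and CORIN (3.36 and 0.79 CPM, -2.08, -2.57 to -1.62) were lower. Reads from the 3' end would miss a small change in the coding sequence, and every direction below rests on the labels. TPH2, the gene of the sort, was at 198 and 161 CPM. Of the 9 serotonergic markers, 5 were higher in the FKO-labelled library, among them the serotonin transporter SLC6A4 (21.1 and 43.6 CPM) and the vesicular transporter SLC18A2 (19.2 and 50.6 CPM). TPH2 and 3 others were lower, and the transcription factor FEV, at 1584 and 908 CPM (log2 ratio -0.80), was called lower. The 6 pan-neuronal markers together were at 6517 and 9542 CPM. All 6 were higher in the FKO-labelled library, as were 72.5% of all genes compared. The log2 ratios of ELAVL4 (0.28), STMN2 (0.36) and MAP2 (0.45) lay under the all-gene median of 0.47 given below. Those of SNAP25 (0.54), TUBB3 (0.62) and DCX (1.29) lay above it. The 6 mesenchymal markers summed to 36.5 and 228 CPM and the 5 astrocytic ones to 9.04 and 42.7 CPM, again with every marker higher in the FKO-labelled library. The astrocytic rise was mostly that of S100B, at 2.89 and 34.0 CPM. SLC1A3 was at 5.74 and 7.96 CPM, and AQP4 (21 and 18 UMIs), ALDH1L1 (7 and 8) and GFAP (3 and 12) had few counts. The log2 ratios of the mesenchymal COL1A1 (5.30), COL1A2 (4.95), PDGFRA (4.58) and COL3A1 (1.76) lay above the all-gene median. Those of DCN and LUM (both 0.39) lay under it. SOX10, a marker of oligodendrocytes and neural crest, had 0 UMIs in the WT-labelled library and 412 in the FKO-labelled library. Of 9676 genes with at least 10 CPM in either library, the median log2 ratio was 0.47, a fold of 1.39, which is the level against which the synaptic genes are read. A gene was called higher or lower where its log2 ratio lay at least 1 above or below that median.

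Synaptic genes as a whole were higher in the FKO-labelled library. The 40 genes together held 119336 UMIs, or 1554 CPM, in the WT-labelled library and 192494, or 3324 CPM, in the FKO-labelled library, a fold of 2.14. Of the 39 genes that reached 10 CPM, 38 had a higher level in the FKO-labelled library, where 72.5% of all genes compared did, and 32 exceeded the median ratio of all genes. The median log2 ratio was 1.0 for the 26 adhesion genes compared and 1.22 for the 12 scaffold genes, or 0.53 and 0.75 above the median of all genes. These 2 values depended on the limit on levels. They were 0.88 and 0.29 over genes that reached 50 CPM, where adhesion stood above scaffold genes, and 0.21 and 0.42 with no such limit. Moving every gene to the end of its counting interval moved these medians to between 0.46 and 0.61 and between 0.59 and 0.87. 10 of the 39 genes (25.6%) were called higher against 5.75% of all genes, and 0 were called lower against 9.7% of all genes. With no limit on levels 8 of the 40 genes were called higher where 18.0% of all genes were, so the contrast with all genes holds among genes of at least 10 CPM and is small without that limit. The limit also let in genes through 1 library alone. NRXN3, NLGN1, DLG2, SHANK3 and DLGAP2 reached 10 CPM in the FKO-labelled library alone, where they were higher, and 2 of these 5, NRXN3 and DLGAP2, were called higher where 23.6% of the 1491 genes let in the same way were. The other 34 reached it in both libraries, and 8 of them were called higher against 2.55% of 8001 such genes. With the limit set on the mean of both libraries, an alternative chosen after seeing the data, 9 of 36 genes were called higher against 5.07% of 8962 genes. The 10 were 6 adhesion genes (NRXN3, SLITRK4, PTPRD, TENM1, TENM2 and TENM4), 3 scaffold genes (CASK, SHANK2 and DLGAP2) and KCTD16. DLG4 was the single gene with a lower level in the FKO-labelled library, and LRRTM1, LRRTM3, CNTNAP5, CADM1, DLG3 and GPHN were higher there but under the median of all genes. SLITRK2 did not reach the limit.

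**Figure D1:**
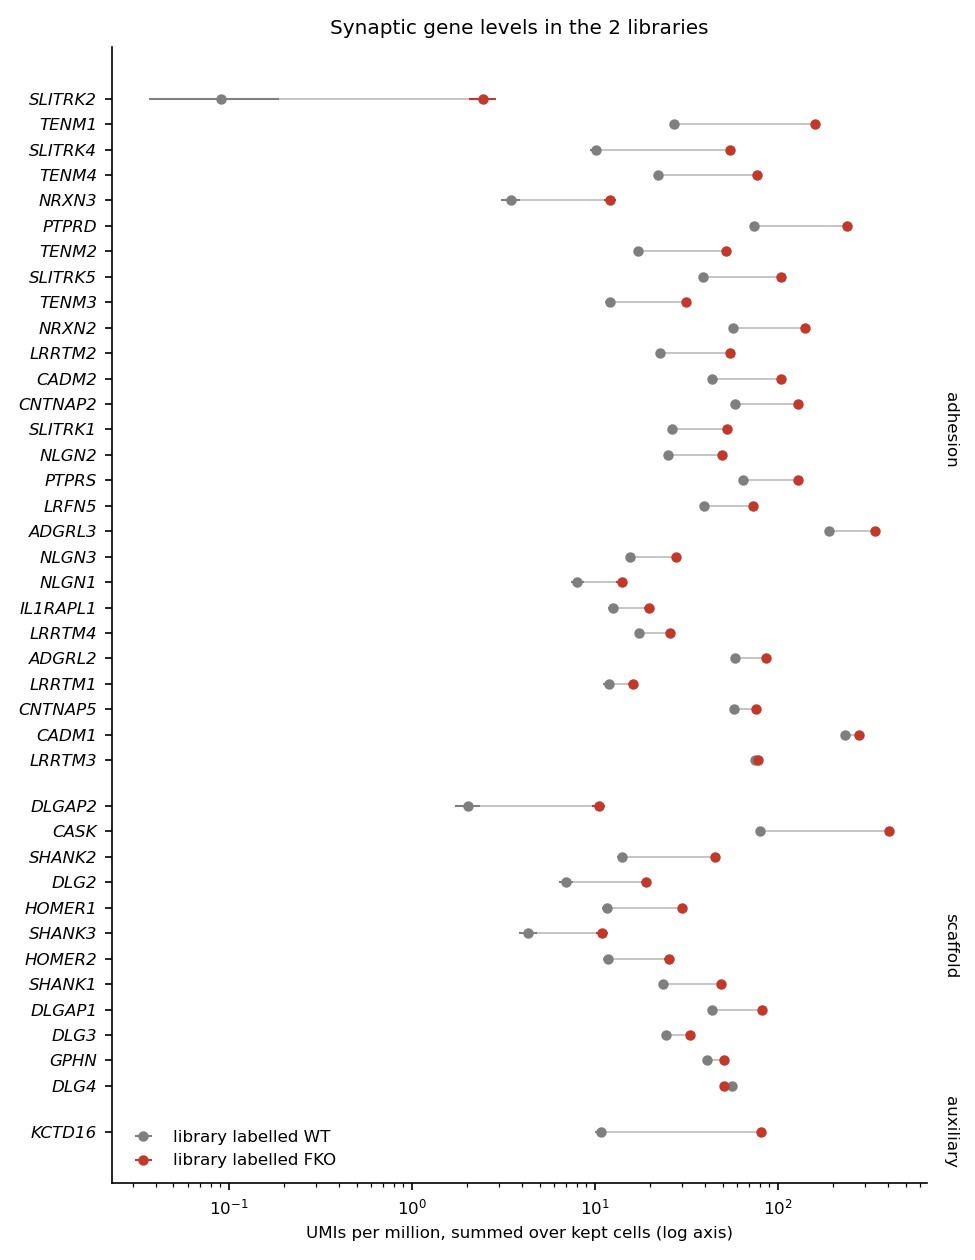
Level of each of the 40 genes (CPM summed over kept cells, log axis) in the WT-labelled library (grey) and the FKO-labelled library (red), with exact 95% Poisson intervals and the genes ordered by ratio within each group. The red point lies to the right of the grey one for every gene except DLG4, and LRRTM3 is the pair that lies closest together among the adhesion genes.

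On the presynaptic side, the neurexin NRXN2 (chr11:64606174-64723188, minus strand) was at 57.3 CPM in the WT-labelled library and 140.6 CPM in the FKO-labelled library, a log2 ratio of 1.30 (1.24 to 1.35). NRXN3 (chr14:78170373-79868290, plus strand) had few counts, 268 and 704 UMIs, or 3.49 and 12.2 CPM. Its log2 ratio of 1.80 (1.60 to 2.01) put it among the genes called higher, but it was compared only because its level in the FKO-labelled library passed 10 CPM. The receptor tyrosine phosphatase PTPRD (chr9:8314246-10612723, minus strand), a presynaptic partner of SLITRK and IL1RAPL1 proteins, had 5699 and 13848 UMIs, or 74.2 (72.3 to 76.2) and 239 (235 to 243) CPM, and a log2 ratio of 1.69 (1.64 to 1.73). Its relative PTPRS was at 64.7 and 129 CPM, with a log2 ratio of 0.99 (0.94 to 1.04), so that the 2 phosphatases differed in their ratio beyond counting error. The contactin-associated genes also differed from each other. CNTNAP2, which encodes a neurexin-like protein of axons, was at 58.3 and 129 CPM (log2 ratio 1.14), whereas CNTNAP5 (chr2:124025287-124915287, plus strand) was at 57.4 and 76.4 CPM (0.41, 0.35 to 0.47), under the median of all genes. All 6 of these genes had a higher level in the FKO-labelled library, and 5 of the 6 lay above the median of all genes.

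The 4 teneurins, large transmembrane proteins that bind latrophilins, all lay above the median of all genes, and 3 of the 4 were called higher, where 21.4% of other genes of their length class (300 to 1000 kb) were. TENM1 (chrX:124375903-124963817, minus strand) had 2083 and 9268 UMIs, or 27.1 (26.0 to 28.3) CPM in the WT-labelled library and 160.0 (157 to 163) CPM in the FKO-labelled library. This is a 5.90-fold difference, a log2 ratio of 2.56 (2.49 to 2.63), the highest of the 26 adhesion genes compared. TENM4 (chr11:78652831-79440948, minus strand) was at 22.2 (21.1 to 23.3) and 77.5 (75.2 to 79.8) CPM with a log2 ratio of 1.81 (1.72 to 1.89). TENM2 was at 17.2 and 52.0 CPM with a ratio of 1.59 (1.5 to 1.69), and TENM3 at 12.2 and 31.5 CPM with a ratio of 1.37 (1.26 to 1.49). Of the latrophilins, adhesion G protein-coupled receptors that bind teneurins, 2 are among the 40 genes. ADGRL3 was at 189.5 and 342 CPM with a log2 ratio of 0.85 (0.82 to 0.88), and ADGRL2 (chr1:81306160-81992436, plus strand) at 58.7 and 86.1 CPM with a ratio of 0.55 (0.49 to 0.61). The 4 teneurin intervals lie above the intervals of these 2 genes. The third latrophilin, ADGRL1, one of the further adhesion genes described at the end, was at 28.7 and 81.9 CPM with a ratio of 1.51 (1.44 to 1.59) and was called higher. The intervals of TENM1 and TENM4 lie above its interval, and those of TENM2 and TENM3 overlap it.

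Among postsynaptic adhesion genes, the 3 neuroligins of the list, which bind neurexins, showed log2 ratios between 0.81 and 0.99, and NLGN4X, which is not on it, is given at the end with 1.88. NLGN1 was at 8.05 and 14.1 CPM, NLGN2, the neuroligin of inhibitory synapses, at 25 and 49.8 CPM, and NLGN3 at 15.6 and 27.9 CPM. The interval of NLGN1 (0.65 to 0.96) overlapped those of both others, so the 3 ratios cannot be put in order at this depth. The LRRTM genes, leucine-rich repeat partners of neurexins, were spread more widely. LRRTM2 was at 22.8 and 54.9 CPM with a log2 ratio of 1.27 (1.18 to 1.35). LRRTM4 was at 17.4 and 25.7 CPM with a ratio of 0.56 (0.45 to 0.67), an interval that holds the median of all genes. LRRTM1 (chr2:80288351-80304749, minus strand) had 914 and 940 UMIs, or 11.9 and 16.2 CPM, a ratio of 0.45 (0.31 to 0.58) that was not separated from the median of all genes. LRRTM3 (chr10:66926006-67099830, plus strand) had 5741 UMIs, or 74.7 (72.8 to 76.7) CPM, in the WT-labelled library and 4513, or 77.9 (75.7 to 80.2) CPM, in the FKO-labelled library. Its ratio of 0.06 (0.00 to 0.12) was the lowest of the 26 adhesion genes. LRFN5, another leucine-rich repeat protein, was at 39.5 and 73.5 CPM (0.90), and IL1RAPL1, an interleukin receptor-like partner of PTPRD, at 12.6 and 19.8 CPM (0.65). The CADM genes encode immunoglobulin adhesion molecules found on both sides of the synapse. CADM1 (chr11:115169218-115504957, minus strand) had 17922 and 16039 UMIs, or 233 and 277 CPM, a ratio of 0.25 (0.22 to 0.28), and CADM2 was at 44.0 and 104.5 CPM with a ratio of 1.25 (1.19 to 1.31).

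SLITRK genes encode postsynaptic leucine-rich repeat proteins that bind PTPRD and PTPRS, and those of the list are short genes with little intron. Introns make up 0% of SLITRK1, 1.20% of SLITRK2, 10.8% of SLITRK5 and 31.4% of SLITRK4 in the annotation. SLITRK4 (chrX:143622790-143635777, minus strand) had 778 and 3184 UMIs, or 10.1 (9.43 to 10.9) CPM in the WT-labelled library and 55.0 (53.1 to 56.9) CPM in the FKO-labelled library. Its log2 ratio was 2.44 (2.33 to 2.56), a 5.43-fold difference. SLITRK5 was at 39.1 and 104.7 CPM with a ratio of 1.42 (1.36 to 1.49), and SLITRK1 at 26.3 and 53.1 CPM with a ratio of 1.01 (0.93 to 1.09). SLITRK2 (chrX:145817832-145829856, plus strand), the gene under the limit, had 7 UMIs in the WT-labelled library and 142 in the FKO-labelled library, or 0.0911 and 2.45 CPM, a ratio of 4.75 (3.67 to 6.09). Of those 142 UMIs, 96 came from cluster 5, described below. The intervals of SLITRK1, SLITRK4 and SLITRK5 did not overlap, and all 3 lay above the median of all genes. Among the further adhesion genes, SLITRK3 was at 8.87 and 17.7 CPM with a ratio of 0.99 (0.85 to 1.14) and SLITRK6 at 38.2 and 57.0 CPM with a ratio of 0.58 (0.50 to 0.65), so that SLITRK6 lay 0.10 above the median of all genes.

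The bases before the start of the 4 SLITRK genes of the list are shown, as a family of short genes whose ratios differ. Each line gives the 250 bases before the first-listed RefSeq start of the gene on GRCh38.p14, 5' to 3' on the strand of the gene, with every CG dinucleotide in capitals:
SLITRK1, chr13:83882475-83882724, minus strand, 6 CG: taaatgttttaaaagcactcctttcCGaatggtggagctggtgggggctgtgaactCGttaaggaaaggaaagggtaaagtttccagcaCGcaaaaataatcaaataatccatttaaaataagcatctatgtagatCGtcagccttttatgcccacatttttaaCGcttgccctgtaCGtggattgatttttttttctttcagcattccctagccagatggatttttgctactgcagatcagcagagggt
SLITRK2, chrX:145817579-145817828, plus strand, 7 CG: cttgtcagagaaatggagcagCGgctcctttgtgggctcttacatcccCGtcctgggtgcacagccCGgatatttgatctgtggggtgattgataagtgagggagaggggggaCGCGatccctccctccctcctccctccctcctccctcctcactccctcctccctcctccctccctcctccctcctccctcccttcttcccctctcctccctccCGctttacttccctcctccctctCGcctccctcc
SLITRK4, chrX:143636102-143636351, minus strand, 3 CG: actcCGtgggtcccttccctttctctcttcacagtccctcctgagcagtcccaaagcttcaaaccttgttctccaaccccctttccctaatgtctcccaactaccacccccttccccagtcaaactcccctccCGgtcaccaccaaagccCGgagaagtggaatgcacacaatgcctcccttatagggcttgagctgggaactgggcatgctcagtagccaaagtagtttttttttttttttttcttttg
SLITRK5, chr13:87671121-87671370, plus strand, 13 CG: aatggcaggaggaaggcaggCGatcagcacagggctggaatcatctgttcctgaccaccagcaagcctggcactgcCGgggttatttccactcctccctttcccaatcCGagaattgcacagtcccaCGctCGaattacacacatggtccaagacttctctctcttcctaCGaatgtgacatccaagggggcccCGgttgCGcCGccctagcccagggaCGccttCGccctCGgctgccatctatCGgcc

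RefSeq entries were matched for 33 of the 40 genes and 27305 genes in all. The median window of all genes held 11 CG and that of the 33 synaptic genes 13, with a range of 1 to 44. Windows with as few CG as that of SLITRK4 or fewer made up 30.1% of all windows, and the same share was 41.6% for SLITRK1, 44.2% for SLITRK2 and 55.3% for SLITRK5. The GC box letters GGGCGG, searched on both strands, were in 14 of the 33 windows (42.4%) and in 42.3% of all windows. The letters TATAAA, searched likewise, were in 2 of the 33 (6.06%) and in 11.1% of all windows. Many of these genes have further starts, and 1 window per gene does not cover them.

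Scaffold genes covered a wider range of ratios than their median shows. CASK (chrX:41514934-41923645, minus strand), a membrane-associated guanylate kinase that binds neurexins, had 6117 and 23418 UMIs, or 79.6 (77.7 to 81.7) CPM in the WT-labelled library and 404 (399 to 410) CPM in the FKO-labelled library. This was a 5.08-fold difference, a log2 ratio of 2.34 (2.30 to 2.38). DLGAP2, which joins DLG to SHANK proteins, had a similar ratio on far fewer counts, 156 and 610 UMIs, or 2.03 (1.72 to 2.38) and 10.5 (9.71 to 11.4) CPM, with a ratio of 2.37 (2.12 to 2.64), and it too was compared only through its level in the FKO-labelled library. Its relative DLGAP1 was at 43.7 and 82.0 CPM (0.91). The 3 SHANK genes, which encode the deeper layer of the postsynaptic density, had ratios above the median of all genes. SHANK2 (chr11:70467856-71252577, minus strand) was at 14.1 and 45.2 CPM with a ratio of 1.68 (1.58 to 1.78), SHANK3 at 4.34 and 11.0 CPM with 1.34 (1.15 to 1.54), and SHANK1 at 23.6 and 49.3 CPM with 1.06 (0.98 to 1.15). The HOMER genes, whose products link SHANK proteins to metabotropic glutamate receptors, were at 11.7 and 29.9 CPM for HOMER1 (1.36) and 11.8 and 25.3 CPM for HOMER2 (1.10).

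The DLG genes encode the scaffold proteins that bind glutamate receptors directly, and they did not share 1 direction relative to all genes. DLG2 (PSD-93) was at 6.97 and 19.1 CPM with a log2 ratio of 1.45 (1.30 to 1.61). DLG3 (SAP102; chrX:70444861-70505490, plus strand) was at 24.4 and 33.1 CPM with a ratio of 0.44 (0.35 to 0.53), which holds the median of all genes within its interval. DLG4 (PSD-95; chr17:7187169-7219841, minus strand) had 4338 UMIs, or 56.5 (54.8 to 58.2) CPM, in the WT-labelled library and 2962, or 51.1 (49.3 to 53.0) CPM, in the FKO-labelled library. Its ratio of -0.14 (-0.21 to -0.08) was -0.62 relative to the median of all genes. GPHN, the gephyrin gene (chr14:66507407-67181803, plus strand), was at 41.2 and 50.7 CPM with a ratio of 0.30 (0.23 to 0.37), also under that median.

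KCTD16 (chr5:144170832-144485686, plus strand), whose product binds the GABA-B receptor and shapes its signalling, had the highest ratio of the 39 genes compared. It had 828 UMIs, or 10.8 (10.1 to 11.5) CPM, in the WT-labelled library and 4693, or 81.0 (78.7 to 83.4) CPM, in the FKO-labelled library. This was a 7.52-fold difference, a log2 ratio of 2.91 (2.80 to 3.02). KCTD12, another auxiliary subunit, was at 5.64 and 26.4 CPM (2.23, 2.07 to 2.38), and KCTD8 had 48 and 95 UMIs and was not compared. The receptor subunits themselves were at 54.7 and 98.2 CPM for GABBR1 (0.84) and 14.4 and 58 CPM for GABBR2 (2.01). GABBR2 and KCTD12 were called higher like KCTD16, where 5.75% of all genes compared were. KCTD12 was compared only through its level in the FKO-labelled library, and 23.6% of all genes let in that way were called higher.

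Gene length moved with the ratio over all genes. The rank correlation of length and log2 ratio was 0.45 over 9592 other genes and 0.15 over the 39 synaptic genes, both given as descriptions of genes measured in the same 2 libraries. Among other genes the median log2 ratio went from -0.17 under 10 kb and 0.26 from 10 to 30 kb, through 0.58 from 30 to 100 kb and 0.83 from 100 to 300 kb, to 1.02 from 300 to 1000 kb and 0.97 above 1000 kb. Of the 39 synaptic genes, 22 were longer than 300 kb. In the class from 300 to 1000 kb, 8 of 16 synaptic genes lay above the median of the other genes, and 7 of the 16 were called higher where 21.4% of other genes were. Above 1000 kb, 5 of 6 lay above the median and 2 were called higher where 24.4% of other genes were. The share of long genes called is therefore a nearer background for most of the 10 calls than the 5.75% of all genes.

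**Figure D2:**
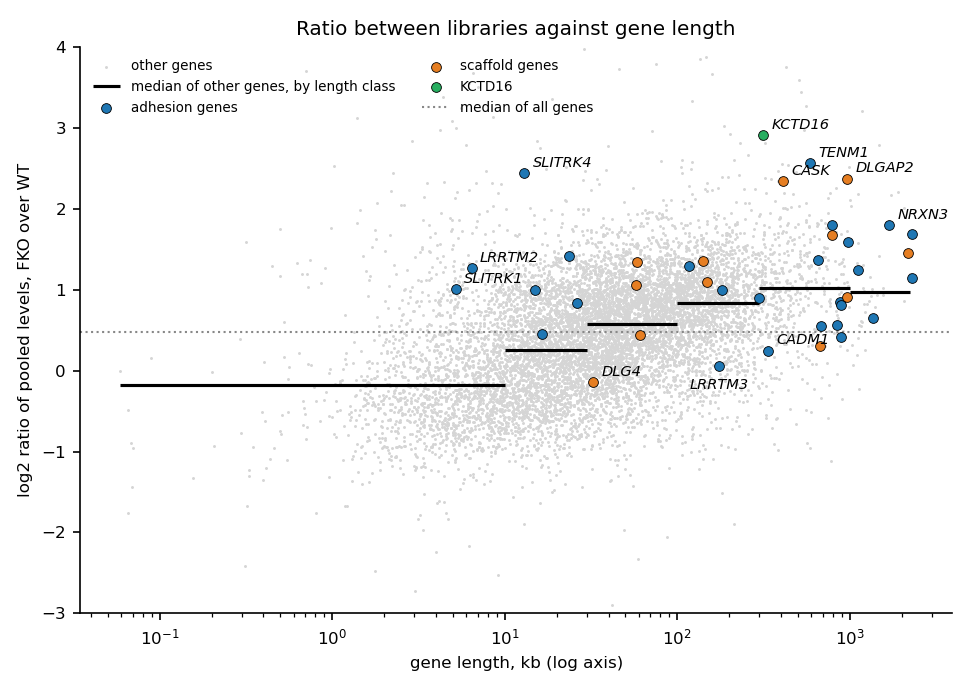
Log2 ratio of pooled levels, FKO over WT, against gene length (kb, log axis) for 9631 compared genes with a length, of which 19 lie outside the plotted range. Grey dots are other genes, black bars their median in each length class, the dotted line the median of all genes, and coloured dots the 39 synaptic genes. The long synaptic genes spread around the black bars, whereas all 7 shorter than 30 kb lie above them.

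Most synaptic genes lay above genes of like length and level, by amounts that did not follow their length in order. Each gene was set beside the 100 other genes nearest to it in length and level, and the median of their ratios was taken from its own. This difference had a median of 0.34 over the 39 genes, with 25 above 0, and of 0.27 for adhesion (16 of 26 above 0) and 0.35 for scaffold genes (8 of 12). For the 7 genes shorter than 30 kb it had a median of 1.08 with a range of -0.10 to 2.26, and was above 0 for 6. For the 10 from 30 to 300 kb it had a median of 0.18 and was above 0 for 6. For the 22 of 300 kb and more it had a median of 0.27 and was above 0 for 13. SLITRK4 stood highest at 2.26, since its neighbours had a median log2 ratio of 0.18, and its ratio exceeded that of all 100 of them. KCTD16 stood 2.06, CASK 1.49 and TENM1 1.47 above their neighbours, LRRTM2 1.43, SLITRK5 1.28, DLGAP2 1.26 and SLITRK1 1.08. At the other end were LRRTM3 at -0.82, GPHN at -0.61, CADM1 at -0.57, CNTNAP5 at -0.56, LRRTM4 at -0.53 and DLG4 at -0.47. 7 genes lay above the median of all genes but under that of their neighbours, LRRTM4 among them with IL1RAPL1 (-0.42), ADGRL2 (-0.42), NLGN1 (-0.26), ADGRL3 (-0.18), DLGAP1 (-0.06) and LRFN5 (-0.0039).

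The content of introns was then compared, since the counts of the deposited tables may hold reads from introns. LRRTM2, SLITRK1, SLITRK4 and SLITRK5 have under 35% of their length in introns, and their log2 ratios ran from 1.01 to 2.44 with a median of 1.34. The 884 other genes with so little intron had a median of 0.01 and an interquartile range from -0.46 to 0.58, and all 4 lay above that range. This limit was chosen after the values of the 4 genes had been seen. The gap was smaller in the next class, 35 to 80% intron, where NLGN2, LRRTM1 and DLG4 had a median of 0.45 and a range from -0.14 to 0.99, and 2948 other genes had a median of 0.30. From 80 to 95% it was 1.08 for 6 synaptic genes and 0.56 for 4340 others. Of the 26 synaptic genes with 95% or more intron the median was 1.20, and of 1420 such other genes it was 0.68.

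7 of the 40 genes lie on the X chromosome, among them TENM1, SLITRK4 and CASK, 3 of the 10 called higher, and SLITRK2. The 377 other genes of the X chromosome had a median log2 ratio of 0.46, close to the 0.47 of 9194 other autosomal genes, and 7.43% of them were called higher against 5.55%. The remaining X-linked genes, NLGN3 (0.84), IL1RAPL1 (0.65) and DLG3 (0.44), had ratios at most 0.36 above the median of all genes.

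Clusters of cells were formed without the synaptic genes and without genes that differed between the pooled libraries by 1.5-fold or more. Of 7 clusters, cluster 1 (2726 cells of the WT-labelled library and 4094 of the FKO-labelled library) was led by CALB1, with KCTD16 also among its 10 leading genes, cluster 2 (1347 and 685) by STC1 and NRIP3, and cluster 3 (947 and 755) by SLC17A8. Cluster 4 (303 and 574) was led by SST and LHX1. Cluster 5 (184 and 346) was led by the cycling genes TOP2A and MKI67 together with the connective tissue genes OGN, MGP and COL1A1, and was left unnamed. Cluster 6 (86 and 345) held shallow cells with medians of 2271.5 and 2690 UMIs, and cluster 7 (156 and 179) was led by the stress genes ATF3, CHAC1, DDIT3 and TRIB3. The summed level of the 40 genes was higher in the FKO-labelled library in all 7 clusters, by folds of 1.76 in cluster 6 to 2.27 in cluster 2. In both libraries it was lowest in cluster 5, at 743 and 1676 CPM, and highest in cluster 6, at 2646 and 4665 CPM. MALAT1, a nuclear RNA, was also highest in cluster 6, at 263804 and 123159 CPM, and its part in the level of the synaptic genes was not tested.

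Within clusters, 260 pairs of gene and cluster could be compared, and the level was higher in the FKO-labelled library in 248 of them (95.4%). Of the pairs of all genes and clusters 71.1% were higher there, with 67.2 to 72.8% in single clusters. In 216 pairs (83.1%) the ratio exceeded the all-gene median of that cluster, 152 of 175 for adhesion genes and 57 of 78 for scaffold genes. Of 31 genes compared in all 7 clusters, 22 lay above the median in every cluster and DLG4 and GPHN in none. The same share of all genes is not given here, and all clusters come from the same libraries. These counts therefore describe the synaptic genes alone. Cluster 6, with 86 cells of the WT-labelled library, gave 39 of the 260 pairs, 33 of them higher in the FKO-labelled library. Some pairs there rested on very few counts. NLGN1 had 1 and 16 UMIs in it, a log2 ratio with an interval from -0.82 to 7.25, and SHANK3 had 0 and 15 UMIs. CASK had nearly the same log2 ratio everywhere, from 1.99 in cluster 5 to 2.41 in cluster 7. Its levels were 43.2 to 113 CPM in the clusters of the WT-labelled library and 172 to 531 CPM in those of the FKO-labelled library, and the ranges did not overlap. TENM1 ranged from 2.05 to 3.62 and KCTD16 from 1.17 in cluster 5 to 3.37 in cluster 4. KCTD16 was at 3.71 to 18.1 CPM and 22.1 to 145 CPM over the clusters, and TENM1 at 2.98 to 30.3 CPM and 36.8 to 282 CPM, again with no overlap. SLITRK4 had a ratio of 0.62 in cluster 5, where its levels were 13.4 and 20.6 CPM, and of 1.89 or more in the other clusters. DLG4 ranged from -0.47 (-1.48 to 0.66) in cluster 6, where it had 11 UMIs in the WT-labelled library, to 0.27 (-0.01 to 0.55) in cluster 4, and both intervals hold 0. CADM2 had a lower level in the FKO-labelled library in clusters 5 and 6 (log2 ratios -0.36 and -0.23) and ratios of 0.94 or more in the others.

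**Figure D3:**
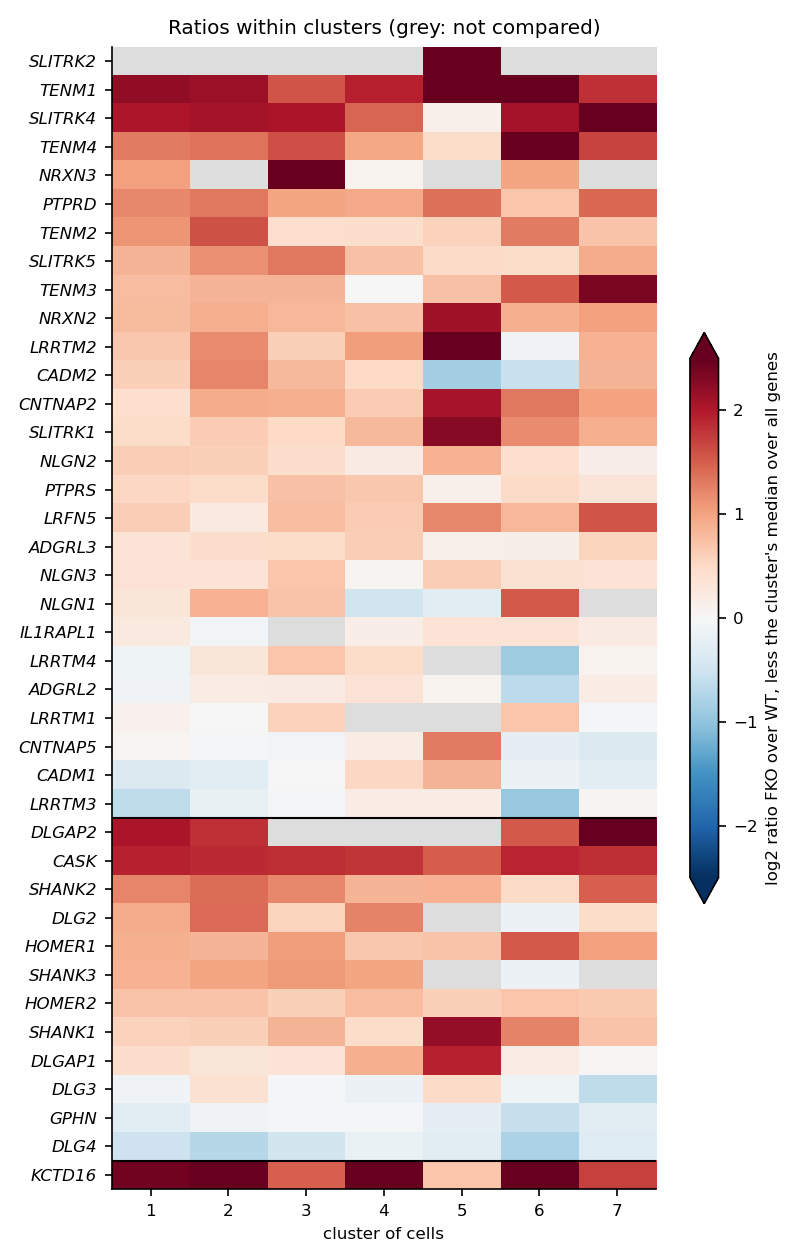
Log2 ratio of FKO over WT for the 40 genes (rows) in the 7 clusters (columns), less the all-gene median of that cluster; red is above that median, blue below it and grey not compared. TENM1, CASK and KCTD16 are red in all 7 columns, and DLG4 and GPHN are at or below the median in all 7.

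SLITRK2 and TENM3 had their highest level in the FKO-labelled library in cluster 5. There SLITRK2 was at 23.8 CPM, with 96 UMIs against 2 in the same cluster of the WT-labelled library, a log2 ratio of 5.32 (3.43 to 8.39), and at 2.35 CPM or less in the other clusters of that library. TENM3 was highest in cluster 5 in both libraries, at 45.3 and 105 CPM, against at most 24.8 and 34.0 CPM in the other clusters, although cluster 5 held only 152 of its 935 and 422 of its 1822 UMIs. In cluster 5 of the FKO-labelled library, COL1A1 was at 1011 CPM, S100B at 406 CPM and SOX10 at 88.7 CPM, and in that of the WT-labelled library at 41.4, 9.84 and 0 CPM. These markers of other cell types and SLITRK2 were thus all higher in cluster 5 of the FKO-labelled library. TENM3 was also higher there, but its log2 ratio in cluster 5, 1.21 (0.94 to 1.49), was no higher than its 1.37 over all cells. The part of these markers in the levels of SLITRK2 and TENM3 was not tested. Without clusters 5 and 6, an alternative chosen after seeing the data, 11 of the 39 genes and 5.75% of all genes were called higher.

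Shares of cells gave the same picture at equal depth. Cells were thinned to 2000 UMIs, which left 5706 and 6862 cells and removed 43 and 116 shallower ones. 39 of the 40 genes were then detected in a larger share of cells of the FKO-labelled library, as were 72.2% of the 9676 genes compared. The exception was DLG4 with 10.4% (9.63 to 11.2) and 9.71% (9.02 to 10.4), shares whose intervals overlap. CASK was detected in 14.2% and 53.0% of cells, PTPRD in 14.2% and 37.5%, TENM1 in 5.22% and 25.4%, KCTD16 in 2.23% and 13.9%, and ADGRL3 in 30.7% and 49.5%. CADM1 was detected in 36.0% and 41.2% and LRRTM3 in 14.2% (13.3 to 15.1) and 14.6% (13.8 to 15.5), again with overlapping intervals. SLITRK2 was detected in 0 of 5706 thinned cells of the WT-labelled library (0 to 0.0646% at that depth) and in 0.466% of those of the FKO-labelled library. Without thinning it was detected in 0.122% and 1.68% of cells. A thinned cell held UMIs of a median of 3 of the 40 genes in the WT-labelled library and of 5 in the FKO-labelled library, and 6.48% and 0.656% of cells held none. In cluster 5, at the same depth, CASK was detected in 9.09% and 22.7% of cells and KCTD16 in 0.568% and 2.65%. This cluster held only 184 and 346 cells before thinning, and no intervals are given for its shares. Small differences from the shares over all cells rest on few cells. In the WT-labelled library CADM2, for example, was detected in 8.20% of all cells and in 8.52% of those of cluster 5. 9 of the 40 genes in the WT-labelled library (NLGN1, NLGN3, SLITRK2, SLITRK4, PTPRS, TENM3, TENM4, CADM2 and HOMER1) and 3 in the FKO-labelled library (NLGN1, SLITRK2 and TENM3) were detected no more often over all cells than in cluster 5, and for these the share by itself is not read as neuronal expression. Without thinning, where the WT-labelled library is deeper, 30 of the 40 genes had the larger share in the FKO-labelled library. The same count over all genes is not given for cells without thinning.

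**Figure D4:**
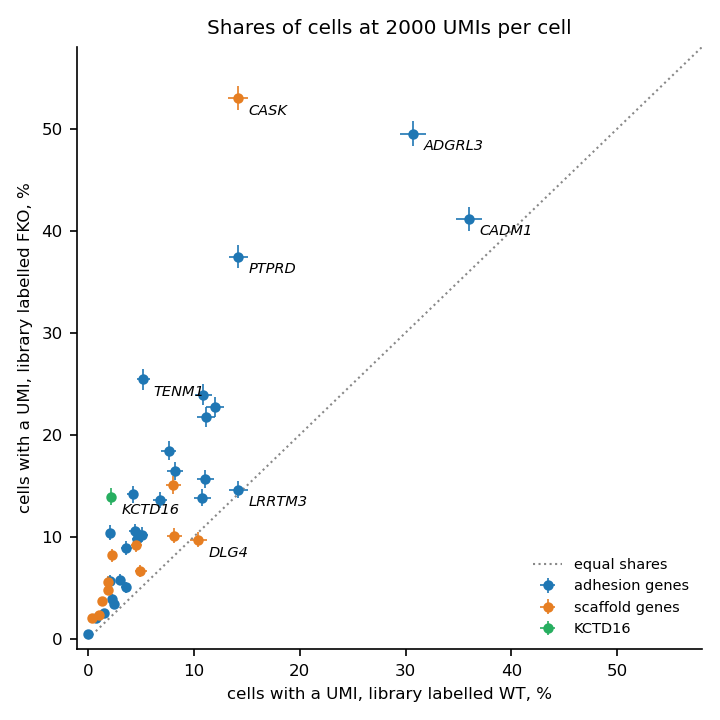
Share of cells with at least 1 UMI of each gene after thinning to 2000 UMIs per cell, WT-labelled library (x axis, %) against FKO-labelled library (y axis, %), with exact 95% binomial intervals. 39 of 40 points lie above the dotted line of equal shares, and CASK, at 14.2% and 53.0%, lies farthest from it.

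The quality of the RNA differed between the libraries. Mitochondrial UMIs made up 7.63% of the UMIs of kept cells in the WT-labelled library and 5.34% in the FKO-labelled library, ribosomal protein genes 11.3% and 7.09%, and 40.4% and 13.5% of all barcodes had over 10% mitochondrial UMIs. MALAT1 was at 56583 and 58255 CPM, and NEAT1, another nuclear RNA, at 29 and 166 CPM. Over barcodes that passed the limits on UMIs, genes and doublets, split by mitochondrial share, the summed level of the 40 genes lay between 1393 and 2322 CPM in the WT-labelled library and between 2896 and 4005 CPM in the FKO-labelled library. The ranges did not overlap, and within each of the 6 bins the fold was between 1.64 and 2.54. In the WT-labelled library the level was highest above 20% mitochondrial UMIs, where MALAT1 was at 144268 CPM and ribosomal protein genes at 3.79%. Among cells with at most 5% mitochondrial UMIs it was 1393 and 3531 CPM.

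**Figure D5:**
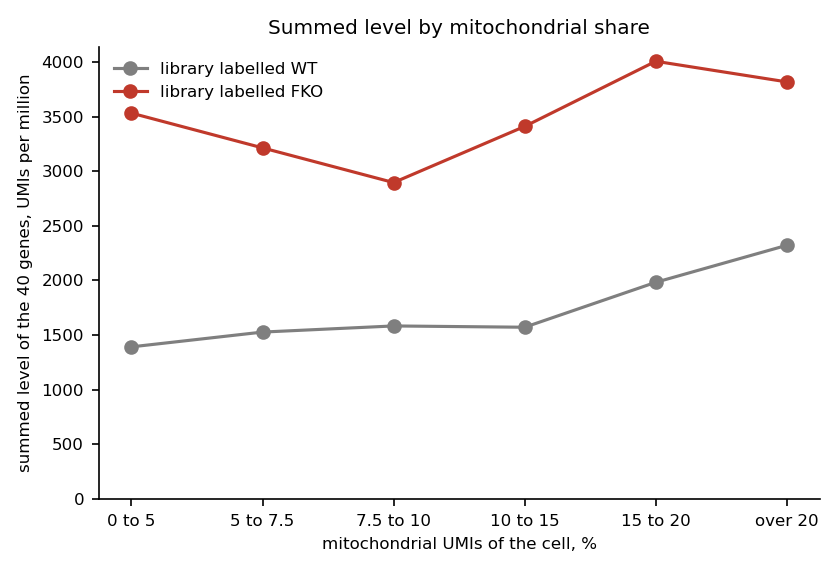
Summed level of the 40 genes (CPM) in cells grouped by their share of mitochondrial UMIs (%), for the WT-labelled library (grey) and the FKO-labelled library (red). The red points lie between 2896 and 4005 and the grey points between 1393 and 2322 in all 6 groups.

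Other genes of the same kinds were compared in the same way. Of 35 further adhesion genes 25 were compared, and all 25 had a higher level in the FKO-labelled library. Their median log2 ratio was 0.99, 23 lay above the median of all genes, and 5 were called higher. Of all genes compared, 72.5% had a higher level in the FKO-labelled library and 5.75% were called higher. Of the 5 called, MDGA2 and CNTNAP1 reached 10 CPM in the FKO-labelled library alone, as did LRRC4, SLITRK3, LRFN1, CBLN2 and ADGRB1. The limit itself made such genes higher there, and 23.6% of all genes let in that way were called. CLSTN2, MDGA2 and NLGN4X are 300 to 1000 kb long, a class in which 21.4% of other genes were called higher. The highest ratios were those of NLGN4X, a neuroligin, at 48.6 and 178.5 CPM (1.88), of CLSTN2, a calsyntenin, at 15.8 and 55.9 CPM (1.82), and of MDGA2, which binds neuroligins, at 6.34 and 20.9 CPM (1.72). The lowest were NTNG1 at 14.9 and 17.2 CPM (0.21), LRFN4 at 33.3 and 44.4 CPM (0.42) and ADGRB3 at 71.1 and 100.2 CPM (0.50). CBLN4 had 0 UMIs in both libraries. Of 25 further scaffold genes 24 were compared. In the FKO-labelled library 21 had a higher level, 16 exceeded the median ratio of all genes, and 5 (20.8%) were called higher. The same shares of all genes are a background for these counts, but not the nearest one for the calls. Among the called genes, APBA1, GRIP1 and GRIP2 reached 10 CPM in the FKO-labelled library alone, where 23.6% of all genes were called. DLG1, DLGAP3 and IQSEC3 were let in likewise and were not called. GRIP1, IQSEC1 and KALRN are 300 to 1000 kb long, the class with 21.4% of other genes called. GRIP2, a glutamate receptor-binding scaffold, was at 3.74 and 14.5 CPM (1.95), its relative GRIP1 at 8.50 and 30.03 CPM (1.82), and KALRN, whose product acts in dendritic spines, at 27 and 93.4 CPM (1.79). LIN7B, which forms a complex with CASK, was at 86.4 and 61.4 CPM (-0.49), HOMER3 at 49.4 and 40.1 CPM (-0.30) and BAIAP2 at 33.0 and 29 CPM (-0.19). CASK and its partner LIN7B thus lay on opposite sides of the median of all genes.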

How the data were processed

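Single-cell RNA sequencing of sorted day 42 SNs was analysed, with 1 library under the label WT and 1 under the label FKO. The deposited values are raw counts of UMIs, for each gene in each barcode, made by the authors with Cell Ranger (7.1.0 in the file headers, 7.0 in the submitters' processing notes, with GRCh38). Whether reads in introns were counted is not given in the sources used here. Barcodes were kept where they held 1000 or more UMIs, 500 or more genes and no more than 10% of mitochondrial UMIs. Scrublet (scanpy 1.11.5) scored doublets. Its own threshold marked 0 barcodes in both libraries and was not used, and the 977 and 620 barcodes with the highest scores (0.8% per 1000 barcodes) were marked. UMIs of the kept cells were summed and scaled to CPM, and log2 ratios were taken without a pseudocount. Intervals at the 95% level were Poisson for levels, conditional on the summed count for ratios, and Clopper-Pearson for shares. Where a gene had 0 UMIs, 3 were used in its place.

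Genes were compared where 1 or both libraries reached 10 CPM. Gene lengths and positions came from GENCODE 29 (GRCh38), matched by Ensembl identifier for 9631 of 9676 genes (99.5%). Clusters came from Seurat 5.3.0 (R 4.3.3) with CCA integration, 2000 variable features, 30 dimensions and a resolution of 0.2, leaving 19750 genes out of the features. Depth after filtering was a median of 12460 and 6927 UMIs per cell. The log2 ratios with their intervals, the limit on levels and the calls were tested on Poisson counts with known changes. The neighbours, the thinning, the clusters and the mitochondrial bins were not part of that test.

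All 40 genes were accounted for, by family, with full values for the 5 highest and 5 lowest ratios of compared adhesion genes, the 3 highest and 3 lowest of scaffold genes, and the 3 highest and 3 lowest of the further genes of each kind. The genes and lists were chosen with earlier results of these data known. Alternatives concerned filters on cells and genes, doublets, depth, weights, scaling, the call, the neighbours and the clustering. No test was made between conditions and no p-value is given. Some marker genes of the lists are not reported here.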

Additional observations from a re-analysis of the deposited data

How the results depend on the processing

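Under no alternative did the median of either list fall to the median of all genes or below. The median above that of all genes, 0.53 for adhesion and 0.75 for scaffold genes, moved to 0.63 for adhesion genes with at most 5% mitochondrial UMIs, to 0.45 for adhesion genes over all deposited barcodes, to 0.88 and 0.29 where only genes reaching 50 CPM were used, and to 0.21 and 0.42 with no limit on CPM beyond more than 3 counts. The 10 genes called higher became 22 with a log2 ratio of at least 1 from 0, where 20.7% of all genes were called, and 21 at 1.5-fold from the median, where 17.9% were. The difference of 0.34 from genes of like length and level became 0.67 when the neighbours were like in level alone. Under the other alternatives 8 to 13 genes were called higher, against 5.07 to 6.42% of all genes except with at most 5% mitochondrial UMIs (13 genes, 9.91% of all) and with no limit on CPM (8 genes, 18.0% of all). Of the pairs of gene and cluster, 80.8% lay above the cluster median at a resolution of 0.5 and 80.7% without integration. Of the 39 genes, 32 kept their side of the median of all genes in all 14 settings on cells, levels and limits that gave them a value. ADGRL2, CNTNAP5, DLG3, GPHN, IL1RAPL1, LRRTM1 and LRRTM4 changed it in at least 1, and the cause was not tested. With 1 library per condition, counting intervals leave out the spread between cultures and sorts. No paired analysis was possible because each condition has 1 library.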
